A study of Mus musculus with 4 samples.

Results

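The genes described here build the wall of brain blood vessels: endothelial cells with their tight junctions and transporters, the pericytes that wrap capillaries, and the smooth muscle of arterioles, together with the growth factors, receptors and transcription factors that act on them. They were selected by gene symbol, as 55 symbols of known vascular function. Of these, 53 had a probe set of their own on the array, 1 probe set for each gene, out of 19938 genes with such a probe set. The symbol Anpt1 was carried by no probe set. Ly6c1, an endothelial surface protein, lies only on 2 probe sets that it shares with Ly6c2 and was left out. A further 4 genes were too dim to be tested, which left 49 of the 13587 genes tested.

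RNA came from the ventral midbrain, the floor of the midbrain with its dopamine neurons, of 2 wild-type samples (WT) and 2 samples with a Rev-erba knock-out (RKO), each hybridised to 1 array. Rev-erba is REV-ERBα, the product of Nr1d1, which represses transcription as part of the circadian clock. All mice were males of 10 to 15 weeks on the C57BL/6J background. They had lived for over 10 days under 12 h of light per day and then for 2 days in constant darkness. The arrays were compared to see what the loss of this receptor does to the transcripts of the tissue. The replicates are labelled biological, while the hour of collection, the number of mice behind an array and the deleted part of Nr1d1 are not given in the sources used here. No cell type is named to which the knock-out would be restricted.

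Endothelial cells of most brain vessels are sealed to each other by claudin-5 and occludin, take up glucose, amino acids and lipids through dedicated carriers and return many lipophilic compounds to the blood through ATP-driven pumps. Pericytes are held at the capillary by PDGF-B from the endothelium acting on the receptor PDGFRβ, and they help to keep this barrier closed. Vessels of the choroid plexus and of the circumventricular organs are different: their endothelium is pierced by pores, the fenestrae, each spanned by a diaphragm made of PLVAP, and they lack most of the barrier. In the mature brain, barrier vessels normally show little Plvap.

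The values are normalized intensities on a linear scale, and differences are RKO minus WT on the log2 scale with limma's standard error (SE), 95% interval and Benjamini-Hochberg adjusted p over all 13587 genes. A gene is called changed when this adjusted p is under 0.05. Nr1d1 itself was 2897 and 3099 in WT, against 1259 and 1230 in RKO, lower on both RKO arrays. Of 8 markers of ventral midbrain, all tested, 4 rose (Th, Slc18a2, Ddc and Slc6a3) and 4 did not pass, and their summed intensity was 132% and 134% of the WT mean in RKO. The part of this shift in the results on vascular genes was not tested. RKO replicate 1 stood apart: over the tested genes its median intensity was 539.8, against 558.6 to 558.7 on the other arrays, and it was the lowest of the 4 arrays for 43.6% of the tested genes and for 53.1% of the 49 vascular genes. Over all probe sets, dim ones included, its median was instead the highest, at 240.1 against 235.7 to 236.8 on the other arrays. In whole tissue, fewer cells of a type and less RNA per cell cannot be told apart.

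Of the 49 vascular genes, 2 rose (Plvap and Angpt1), 1 fell (Acta2) and 46 did not pass. Without RKO replicate 1, Plvap was the 1 gene of them still called. Across all tested genes 0.640% rose and 0.964% fell. The median difference was -0.06 over the vascular genes and -0.01 over all genes. For 22 of the 49 both RKO arrays lay below both WT arrays, or 44.9%, where 24.6% of all genes did so. For 6 both lay above, or 12.2%, where 17.2% of all genes did. At an unadjusted limma p under 0.05 there were 10 lower and 3 higher, or 20.4% and 6.12%, against 6.90% and 5.90% of all genes. Tagln among the lower and Angpt1 among the higher passed the filter on dim genes only through the group where they were high. Over the 49 genes the median size of the difference was 0.09, and the same genes differed by a median of 0.05 within WT and 0.07 within RKO. With 1 array left out these shares were 53.1% against 31.3% of all genes without RKO replicate 1, and 63.3% against 49.6% without RKO replicate 2. They were 46.9% against 37.9% without WT replicate 1, and 53.1% against 41.6% without WT replicate 2. The gap between the vascular genes and all genes was narrower in the 3 latter settings than with all arrays, and without WT replicate 1 the medians were -0.02 and -0.01.

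**Figure D1:**
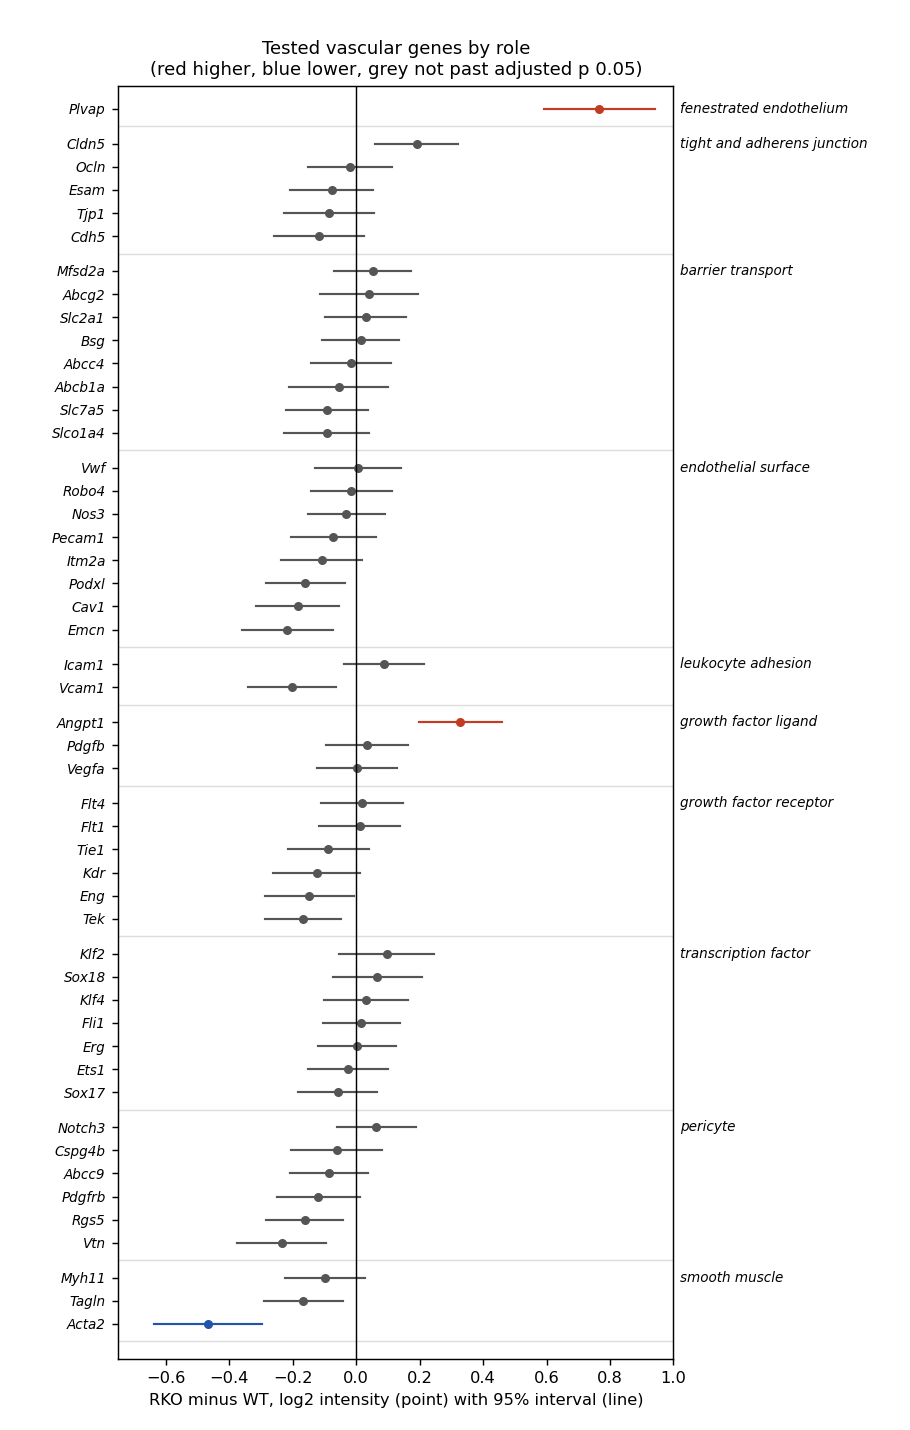
Differences of the 49 tested vascular genes, grouped by role. The horizontal axis is RKO minus WT in log2 intensity, points are limma estimates from 2 arrays per group and lines are 95% intervals. Plvap (0.77) and Angpt1 (0.33) lie to the right, Acta2 (-0.47) lies farthest to the left, and all other genes lie between -0.23 and 0.19.

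Plvap, the protein of the fenestral diaphragm, showed the largest difference of the vascular genes. Intensities of 328 and 381 were measured in WT, against 569 and 637 in RKO. Both RKO arrays stood above both WT arrays, and the arrays of a group differed from each other by 0.21 (WT) and 0.16 (RKO) on the log2 scale. Plvap rose 1.70-fold (log2 difference 0.77, SE 0.0797, 95% interval 0.59 to 0.94, adjusted p = 0.00072), which placed it 6th from the top among the 13587 tested genes. With any 1 array left out the difference was 0.66 to 0.87 and the gene was still called, in fits where the lone array of a group is assumed to vary like the pair of the other. Testing all 19938 genes with no filter on dim probe sets raised its adjusted p to 0.0580.

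Markers of tissue with fenestrated vessels were set beside Plvap. Of 12 choroid plexus genes 9 were tested, of which none rose, 1 fell (Kcnj13, a potassium channel, -0.37, adjusted p = 0.0166) and 8 did not pass. All 8 had differences above 0, where 5872 of all 13587 genes did so. Sostdc1, a secreted inhibitor of BMP and Wnt signals, was the 1 of the 8 at an unadjusted limma p under 0.05 (0.26, adjusted p = 0.0592). The summed intensity of the 9 was 9821 and 9642 in WT, against 10155 and 10276 in RKO, higher on both RKO arrays. Most of this sum came from Ttr, the transthyretin made in bulk by choroid plexus. Ttr was 6973 and 6634 in WT, against 7421 and 7330 in RKO (0.12, adjusted p = 0.434). Of 7 pituitary and circumventricular genes 3 were tested and 0 passed by limma (Pomc alone had an unadjusted p under 0.05, with 151 and 174 in WT against 177 and 187 in RKO), with sums of 557 and 645 in WT, against 673 and 641 in RKO, which overlap. Prl, Tshb, Cga and Rax were below the filter. Pomc and Gh were tested only because of their RKO values, since their WT means (log2 7.34 and 7.37) lay below the filter of 7.38. The part of either tissue in the Plvap difference was not tested.

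The genes whose 4 log2 values, each centred on the gene's own mean, lay closest to those of Plvap were Th (distance 0.161), Etnppl (0.204), Ednrb (0.212), Car14 (0.233) and Spon2 (0.234). Th is tyrosine hydroxylase of dopamine neurons, Ednrb the endothelin receptor B, and Car14 a membrane carbonic anhydrase. All 5 rose, by 0.72 to 0.93 on the log2 scale. That they rose follows from choosing them by likeness to Plvap, and the likeness rests on 4 arrays. Spon2 was tested only because of its RKO values, since its WT mean (log2 7.34) lay below the filter of 7.38.

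Of the 5 genes of the barrier junctions 0 passed by limma (1, Cldn5, at an unadjusted p under 0.05), with a median difference of -0.08. Cldn5, the main claudin of brain endothelium, was 1171 and 1254 in WT, against 1365 and 1402 in RKO. Both RKO arrays were above both WT arrays, yet the difference of 0.19 (SE 0.0591, 95% interval 0.06 to 0.32) did not pass (adjusted p = 0.176). Ocln, which encodes occludin, was 312 and 307 in WT, against 317 and 294 in RKO, with overlapping groups and a difference of -0.02 (95% interval -0.15 to 0.11). Tjp1, the scaffold ZO-1 beneath the junction, was 1356 and 1393 in WT, against 1230 and 1366 in RKO (-0.09, -0.23 to 0.06). The groups overlapped there as well. Cdh5, the cadherin of endothelial adherens junctions, was 630.1 and 624 in WT, against 547 and 611 in RKO (-0.12, -0.26 to 0.03). Esam, an endothelial adhesion molecule of the junction, was 460.1 and 488 in WT, against 459 and 440 in RKO (-0.08, -0.21 to 0.05). In both genes the RKO arrays were the lower ones, by less than the test could call.

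The 8 transport genes had differences of -0.09 to 0.05, and 0 of them passed by limma (0 at an unadjusted p under 0.05). Slc2a1, the glucose carrier GLUT1, was 3796 and 4033 in WT, against 3940 and 4048 in RKO (0.03, 95% interval -0.10 to 0.16). Mfsd2a, which carries lysophospholipids with docosahexaenoic acid and restrains transcytosis, was 1380.2 and 1413 in WT, against 1444 and 1452 in RKO (0.05, -0.07 to 0.17). Only for Mfsd2a among these 8 did both RKO arrays lie above both WT arrays. Slc7a5, the large neutral amino acid carrier LAT1, was 2084 and 2163 in WT, against 1935 and 2048 in RKO (-0.09, -0.22 to 0.04). Slco1a4, an organic anion carrier, was 1572 and 1450.1 in WT, against 1389 and 1441 in RKO (-0.09, -0.23 to 0.04). For both carriers the RKO arrays were the lower ones.

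The drug pumps and Bsg overlapped between the groups. Abcb1a, one of the P-glycoproteins of the mouse, was 703 and 642 in WT, against 612 and 683 in RKO (-0.06, 95% interval -0.21 to 0.10). Abcg2, the breast cancer resistance protein, was 303 and 277 in WT, against 282 and 315 in RKO (0.04, -0.12 to 0.19). Abcc4, which exports organic anions, was 435 and 436 in WT, against 419 and 443 in RKO (-0.02, -0.14 to 0.11). Bsg, basigin, the partner that brings lactate carriers to the membrane, was 3653 and 3675 in WT, against 3666 and 3733 in RKO (0.01, -0.11 to 0.13).

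Taking Plvap against the 13 junction and transport genes together, the log2 intensity of Plvap minus their mean was -1.59 and -1.37 in WT, against -0.75 and -0.64 in RKO. The RKO arrays were higher on this measure by 0.78. The 13 genes themselves differed by -0.02 on average. An exact two-sided permutation test of 2 against 2 arrays gave p = 0.333, the smallest this test can give with 2 arrays per group, so it could not reach 0.05. Among the 13 genes the highest upper bound of a 95% interval was 0.32 (Cldn5), followed by 0.19 (Abcg2), while the lower bound of Plvap was 0.59.

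**Figure D2:**
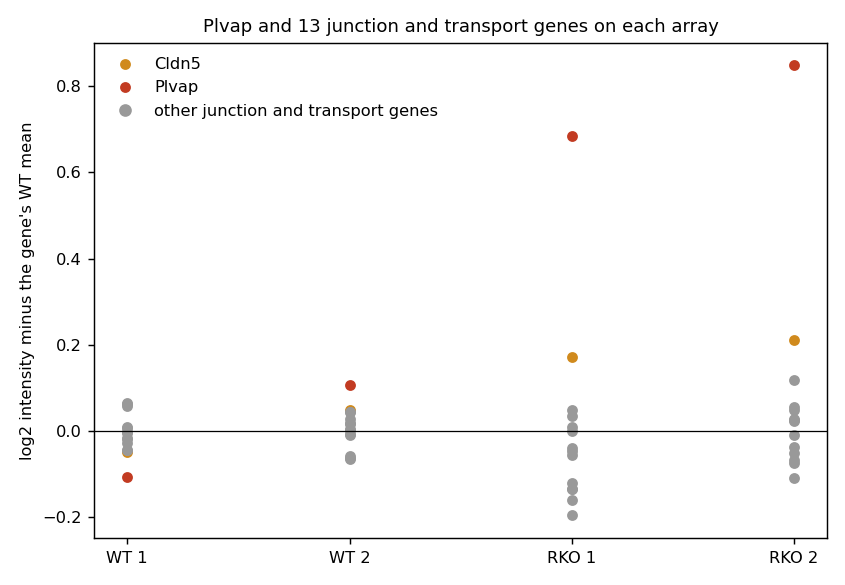
Log2 intensity of Plvap and of the 13 junction and transport genes on each of the 4 arrays (horizontal axis), relative to each gene's WT mean (vertical axis, log2). Plvap stands apart on both RKO arrays, Cldn5 lies above the other 12 genes there, and those 12 scatter around 0.

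Of the 8 endothelial surface genes tested 0 passed by limma (3 at an unadjusted p under 0.05, all lower). Their median difference was -0.09, and in 5 of them both RKO arrays lay below both WT arrays, where 24.6% of all genes did so. Emcn, endomucin, a sialomucin of veins and capillaries, was 684 and 645 in WT, against 544 and 599.8 in RKO (-0.22, SE 0.0651, adjusted p = 0.159). Cav1, the caveolin that forms caveolae, was 554 and 574 in WT, against 480.2 and 512 in RKO (-0.18, SE 0.0591, adjusted p = 0.193). Podxl, podocalyxin of the luminal surface, was 616 and 620.3 in WT, against 565 and 542 in RKO (-0.16, SE 0.0560, adjusted p = 0.244). In each of these genes the RKO arrays were the lower ones. Itm2a, a membrane protein abundant in brain endothelium, stood at -0.11 and Pecam1, the adhesion molecule CD31, at -0.07. The endothelial nitric oxide synthase Nos3 (-0.03), the guidance receptor Robo4 (-0.01) and Vwf, the clotting protein von Willebrand factor (0.005), had intervals that reached from -0.15 to 0.14. Vwf was 336 and 356 in WT, against 335 and 359 in RKO, and Robo4 was 274 and 275 in WT, against 279.7 and 263 in RKO. These groups overlapped, while Nos3, at 299 and 298 in WT, against 295 and 289 in RKO, was slightly lower on both RKO arrays. Among 8 markers of astrocytes, whose endfeet sheathe these vessels, 2 fell (Gfap, -0.51, and Aldh1l1, -0.31), 0 rose and 6 did not pass, among them the endfoot water channel Aqp4 (-0.13). The list went both ways: the gap junction gene Gja1 (0.22, adjusted p = 0.0848) and the glutamate carrier Slc1a2 (0.05) were above both WT arrays on both RKO arrays, without passing. The part of astrocytes in the vascular values was not tested.

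Of the 4 genes for leukocyte adhesion 2 were tested. Vcam1, which binds the integrin VLA-4 of leukocytes, was 602 and 584 in WT, against 491 and 541 in RKO (-0.20, SE 0.0629, adjusted p = 0.178). Icam1, which binds LFA-1, was 281 and 296 in WT, against 308 and 305 in RKO (0.09, SE 0.0571, adjusted p = 0.588). Neither passed; both RKO arrays were lower for Vcam1 and higher for Icam1. Icam2, with 146 and 172 in WT, against 155 and 164 in RKO, and the selectin Sele, with 128 and 156 in WT, against 172 and 153 in RKO, lay below the filter. Icam2 was the member just outside it, with a mean log2 intensity of 7.31 against the limit of 7.38, and Angpt1 was just inside at 7.39.

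Angpt1, the angiopoietin that pericytes and other perivascular cells release to quiet the endothelium, was 155 and 145 in WT, against 186 and 190.4 in RKO. The RKO arrays were the higher ones. It rose 1.26-fold (log2 difference 0.33, SE 0.0590, 95% interval 0.20 to 0.46, adjusted p = 0.0180). It was tested only because of its RKO values, since the filter lay at an intensity of 167, above both WT arrays. The call was lost without RKO replicate 1 (adjusted p = 0.123), RKO replicate 2 (0.113) or WT replicate 2 (0.0676), and with no filter (0.184). It was also lost when each array was centred on its median over the tested genes (0.0536) and after quantile normalization (0.0683).

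The other growth factors did not pass. Vegfa, the main driver of endothelial growth, was 1053 and 1011 in WT, against 1013 and 1055 in RKO, with overlapping groups and a difference of 0.003 (95% interval -0.12 to 0.13). Pdgfb, the signal that recruits pericytes, was 433 and 439 in WT, against 431 and 462 in RKO (0.03, -0.10 to 0.16). Angpt2, the counterpart of Angpt1 that destabilises vessels, and the lymphatic factor Vegfc were below the filter. Their intensities were 132 and 153 (WT) and 137 and 137 (RKO) for Angpt2, and 124 and 131 (WT) and 135 and 132 (RKO) for Vegfc.

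Receptors of these factors gave 0 calls among 6 in limma (2 at an unadjusted p under 0.05, both lower). Tek, the receptor TIE2 that binds the angiopoietins, was 591 and 583 in WT, against 522 and 523 in RKO (-0.17, SE 0.0546, adjusted p = 0.202). Eng, endoglin, a co-receptor for BMP9 and TGF-β, was 631 and 622 in WT, against 537 and 596 in RKO (-0.15, SE 0.0638, adjusted p = 0.361). Kdr, the receptor VEGFR2, was 236 and 256 in WT, against 231 and 219 in RKO (-0.13, SE 0.0622, adjusted p = 0.450). The RKO arrays were lower in all 3, and also in Tie1, a partner of TIE2 (-0.09). Such a separation was seen in 24.6% of all genes. Tie1 was 332 and 345 in WT, against 309.9 and 327 in RKO. Flt1, the VEGF decoy receptor VEGFR1, was 915 and 894 in WT, against 886 and 939 in RKO (0.01), and Flt4, the VEGF-C receptor VEGFR3, was 176 and 178 in WT, against 185 and 173 in RKO (0.02). Both overlapped between the groups.

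Of the 7 endothelial transcription factors 0 passed by limma (0 at an unadjusted p under 0.05). Their differences ran from -0.06 to 0.10, with a median of 0.02. Klf2, which is induced by blood flow, was 298 and 308 in WT, against 344 and 304 in RKO (0.10, 95% interval -0.05 to 0.24). Its height in RKO rests on replicate 1 alone. Sox18, a SOX factor of endothelium, was 278 and 309 in WT, against 305 and 309.5 in RKO (0.07), and Klf4, a relative of Klf2, was 193 and 187 in WT, against 201 and 187 in RKO (0.03). Sox17, a SOX factor of arterial endothelium, was 226 and 221 in WT, against 210.4 and 219 in RKO (-0.06). It was the 1 factor of the 7 with both RKO arrays below both WT arrays. The ETS factor Ets1 was 236 and 223 in WT, against 223 and 227 in RKO (-0.03), and Erg, another, was 241 and 237 in WT, against 243 and 236 in RKO (0.004). Like Fli1 (0.02), these overlapped between the groups.

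Of the 6 pericyte genes 0 passed by limma (2 at an unadjusted p under 0.05, both lower). Below 0 lay 5 of the 6, where 7715 of all 13587 genes did so. Vtn, vitronectin, in the adult brain made largely by pericytes, was 2096 and 2197 in WT, against 1740.0 and 1913 in RKO (-0.23, SE 0.0637, adjusted p = 0.117). Rgs5, a regulator of G protein signals and classic pericyte marker, was 841 and 851 in WT, against 747 and 765 in RKO (-0.16, SE 0.0551, adjusted p = 0.227). Pdgfrb, the receptor for PDGF-B, was 676 and 710.2 in WT, against 623 and 654 in RKO (-0.12, SE 0.0586, adjusted p = 0.445). In these 3 genes, as in Abcc9, the sulfonylurea receptor of a potassium channel (-0.09), both RKO arrays were below both WT arrays. That separation was seen in 24.6% of all genes. Abcc9 was 351 and 343 in WT, against 321 and 332 in RKO, and Cspg4b was 218 and 199.8 in WT, against 193 and 208 in RKO (-0.06), with overlapping groups. Notch3, the Notch receptor of mural cells, was the 1 pericyte gene with both RKO arrays above both WT arrays, at 357 and 361 in WT, against 368 and 383 in RKO (0.06, adjusted p = 0.735).

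Acta2, the smooth muscle actin of arterioles, was 715 and 719 in WT, against 475 and 566 in RKO. Both RKO arrays were below both WT arrays, and the RKO arrays differed from each other by 0.25 on the log2 scale, against 0.007 between the WT arrays. Acta2 fell 1.38-fold (log2 difference -0.47, SE 0.0769, 95% interval -0.64 to -0.30, adjusted p = 0.0109). Without RKO replicate 1 the difference was -0.34 and no longer passed (adjusted p = 0.0915). The call was also lost with no filter (0.180) and after centring over the tested genes (0.0767). Tagln, the actin-binding protein SM22, was 182 and 177 in WT, against 163 and 157 in RKO (-0.17, SE 0.0564, adjusted p = 0.227). Tagln was tested only because of its WT values, since its RKO mean (log2 7.32) lay below the filter of 7.38. Myh11, smooth muscle myosin, was 219 and 231 in WT, against 208 and 212 in RKO (-0.10, SE 0.0571, adjusted p = 0.542). All 3 smooth muscle genes, Tagln with the limit just given, lay lower on both RKO arrays, where 24.6% of all genes did so. Of the 3 only Acta2 was called.

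**Figure D3:**
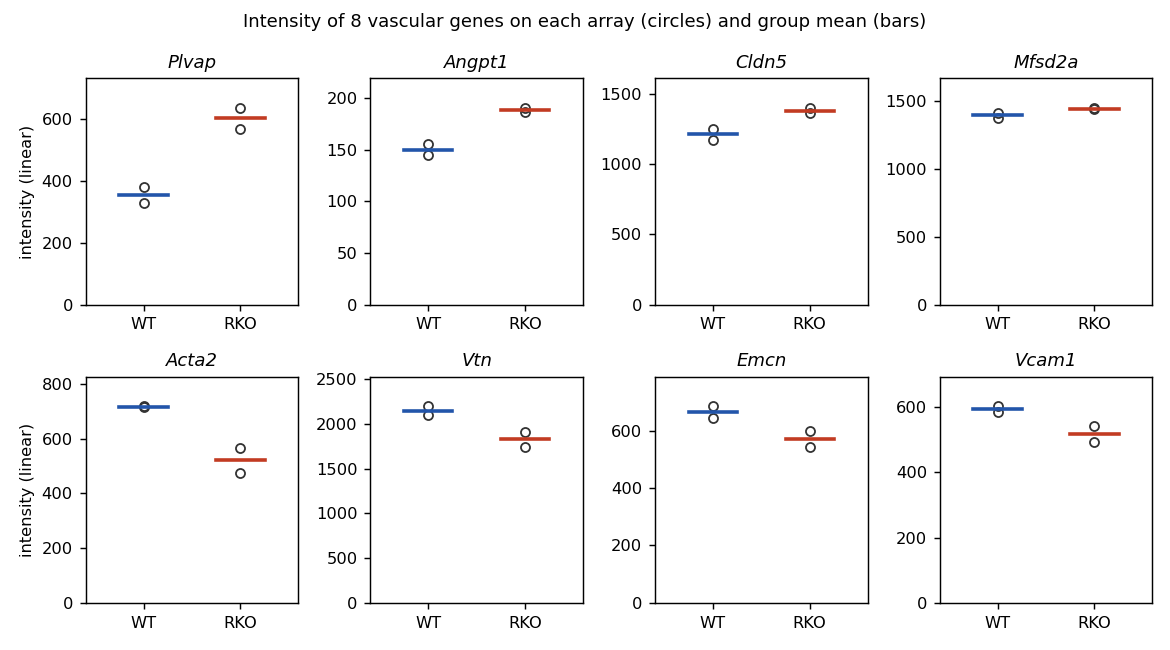
Intensity (linear scale, vertical axes from 0) of 8 vascular genes on each array (circles), with the group mean as a bar, 2 arrays per group. Plvap, Angpt1 and Acta2 were called changed, and Cldn5, Mfsd2a, Vtn, Emcn and Vcam1 were not, although their arrays were separated too.

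Markers of the leptomeninges, the membranes on the brain surface whose fibroblasts and vessels share genes with mural cells, were set beside the pericyte and smooth muscle genes. Of 15 such markers 14 were tested: 10 fell, 0 rose and 4 did not pass, with a median difference of -0.40. Across all tested genes 0.964% fell and 0.640% rose. Ogn, among those that fell (-1.11), was tested only because of its WT values, since its RKO mean (log2 7.17) lay below the filter of 7.38. For 12 of the 14, Ogn included, both RKO arrays lay below both WT arrays, where 24.6% of all genes did so. The collagen genes Col1a1 (0.13, adjusted p = 0.351) and Col1a2 (0.07, adjusted p = 0.724) lay above them on both. The summed intensity of the 14 was 6779 and 6927 in WT, against 5201 and 5196 in RKO. The sum over the 3 smooth muscle genes was 1116 and 1126 in WT, against 847 and 935 in RKO, and over the 6 pericyte genes 4539 and 4662 in WT, against 3991 and 4254 in RKO. None of the lists had a marker at 0, and Lum was below the filter. The part of leptomeningeal tissue in the falls of vascular genes was not tested. Microglia markers gave 0 calls among 6 in limma (0 at an unadjusted p under 0.05), and of 8 blood cell markers only Alas2 and Slc4a1 were tested (0 passed, also at that p).

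**Figure D4:**
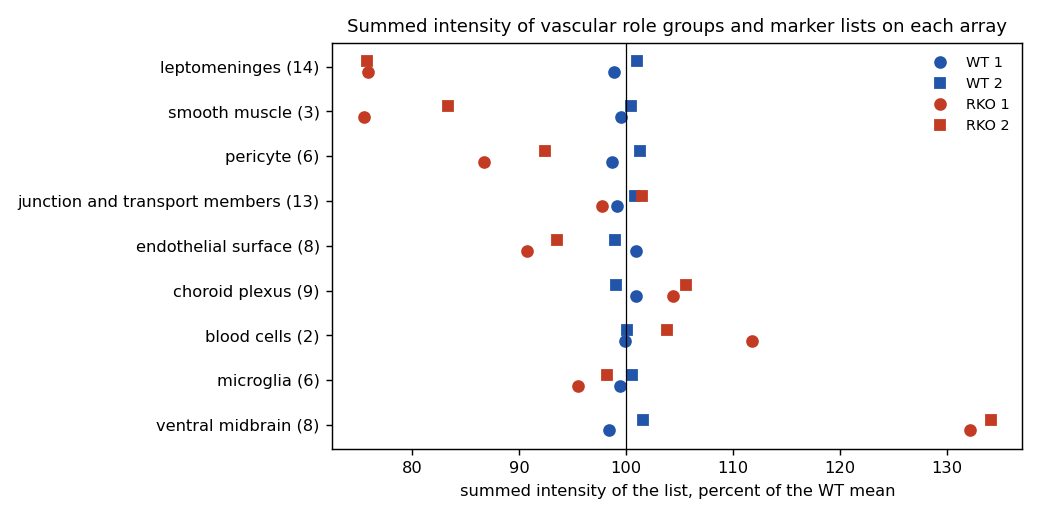
Summed intensity of role groups and marker lists on each array, as a percent of the WT mean of that list (number of tested genes in brackets). The leptomeninges sum was 75.9% and 75.8% in RKO, smooth muscle 75.5% and 83.4%, pericytes 86.8% and 92.5%, junction and transport genes 97.8% and 101.5%, and choroid plexus 104.4% and 105.6%. Sums of linear intensities weigh the brightest genes most, such as Ttr for choroid plexus and Vtn for pericytes.

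The promoter windows of 3 of these genes are shown as examples with a match to a motif searched here, Acta2 being the smooth muscle gene that fell. The part of the motifs in the differences was not tested. The windows run 5′ to 3′ with the motif in capitals. RefSeq's table for GRCm38.p6 held such windows, 250 bases before to 50 after a start site, for 33 of the listed genes. Acta2 (chr19:34255324-34255623, minus strand) holds 2 matches to the CArG-like motif, a variant of the CArG box through which serum response factor and myocardin drive smooth muscle genes. Emcn (chr3:137340828-137341127, plus strand) holds 2 matches and Mfsd2a (chr4:122961139-122961438, minus strand) 1 match to AGGTCA, the core of the element bound by REV-ERB and ROR receptors, a match on the minus strand appearing as its reverse complement.
Acta2: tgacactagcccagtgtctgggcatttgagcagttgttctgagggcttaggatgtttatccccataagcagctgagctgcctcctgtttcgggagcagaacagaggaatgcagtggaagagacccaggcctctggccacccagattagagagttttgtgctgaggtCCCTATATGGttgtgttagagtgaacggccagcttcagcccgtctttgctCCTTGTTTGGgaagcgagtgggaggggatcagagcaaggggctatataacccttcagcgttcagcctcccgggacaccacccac
Emcn: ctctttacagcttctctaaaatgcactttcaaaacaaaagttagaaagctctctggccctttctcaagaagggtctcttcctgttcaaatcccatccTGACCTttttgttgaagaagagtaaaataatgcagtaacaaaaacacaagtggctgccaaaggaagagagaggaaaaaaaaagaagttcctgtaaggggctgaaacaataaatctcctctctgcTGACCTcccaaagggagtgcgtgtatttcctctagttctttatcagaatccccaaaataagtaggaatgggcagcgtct
Mfsd2a: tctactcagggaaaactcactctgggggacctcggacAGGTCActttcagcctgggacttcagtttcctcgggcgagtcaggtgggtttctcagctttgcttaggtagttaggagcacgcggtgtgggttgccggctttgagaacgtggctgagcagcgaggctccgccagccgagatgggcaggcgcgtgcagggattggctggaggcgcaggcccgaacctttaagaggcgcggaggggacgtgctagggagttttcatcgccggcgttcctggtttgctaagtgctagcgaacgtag
Searched on both strands, AGGTCA occurred in the windows of 7 of the 33 genes (Abcg2, Emcn, Erg, Ly6c1, Mfsd2a, Ocln and Robo4), or 21.2%, against 18.1% of all 27025 genes with a window. None of the 6 of these genes that were tested was called. Of the 3 called genes Acta2 was among the 33, and Plvap and Angpt1 were not. The E-box CACGTG occurred in 2 of 33 (Abcc4 and Klf4, 6.06% against 8.09%). The exact CArG box was in 0 of 33 against 1.81%. The CArG-like form, with at most 1 base other than A or T in the middle, was taken up after the exact form gave no match. It was in 7 of 33 (Abcc4, Acta2, Eng, Kdr, Ocln, Slco1a4 and Tek), or 21.2% against 11.3%. Of these 7 genes only Acta2 was called. The matches of Acta2 begin 84 and 34 bases before the start site, and neither overlaps another motif searched.

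Other vascular genes, listed by role from general knowledge, were tested in the same fit. Of 131 such symbols 105 were tested, of which 1 rose and 5 fell, with a median difference of -0.05. These were 0.952% and 4.76% of the 105. They are to be read, like the counts per list below, against 0.640% and 0.964% of all genes. In this wider group both RKO arrays lay below both WT arrays for 46 of the 105, or 43.8%, and above for 21, or 20.0%, to be read against 24.6% and 17.2% of all genes. Without RKO replicate 1 there were 2 calls among these genes, and without RKO replicate 2 there were 3. The 26 others had no probe set of their own or were too dim.

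Among 29 other barrier genes 0 rose and 1 fell, with a median of -0.05. The one that fell was Slc22a8, the organic anion transporter OAT3 of brain endothelium, choroid plexus and meninges, from 1009.9 and 1077 in WT to 727 and 789 in RKO (-0.46, adjusted p = 0.00355). Thyroid hormone and anion carrier Slco1c1 (-0.20, adjusted p = 0.153) and the transferrin receptor Tfrc (-0.21, adjusted p = 0.236) did not pass. Cldn1, a claudin of epithelia and meninges, had the highest difference (0.23, adjusted p = 0.163).

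Wnt and Norrin signalling, through which neurons and glia induce and keep the barrier, was measured in 20 genes, of which 0 rose, 2 fell and 18 did not pass. Foxc1, a forkhead factor of mural cells and meninges, fell from 213 and 224 in WT to 175 and 173 in RKO (-0.32, adjusted p = 0.0157). Nkd1, a feedback inhibitor and target of Wnt signalling, fell from 796 and 812 to 652 and 656 (-0.30, adjusted p = 0.0215). The median of the 20 was -0.14, and 10 were lower and 1 (Sox7) higher at an unadjusted p under 0.05, where 6.90% and 5.90% of all genes were. Beside the genes called, the lower ones were the receptor Fzd6 (-0.22), the target genes Lef1 (-0.24), Apcdd1 (-0.21), Tnfrsf19 (-0.20) and Axin2 (-0.17), the ligand Ndp (-0.19) and the co-receptors Adgra2 (-0.17) and Reck (-0.17). The ligands Wnt7a (0.12) and Wnt7b (0.02) and the receptor Fzd4 (0.05) lay above 0, and Sox7 was highest (0.19, adjusted p = 0.295). All are values of whole tissue, and the part of vessel cells or of other cells in them was not tested.

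Of 39 other endothelial genes 1 rose and 0 fell, with a median of -0.03. Apln, which encodes the peptide apelin, rose from 1222 and 1237 in WT to 1640.0 and 1757 in RKO (0.47, adjusted p = 0.00214), while its receptor Aplnr stood at 0.01. Gata2, a factor of endothelium, blood and midbrain GABA neurons, just missed the threshold (0.29, adjusted p = 0.0511), and Tm4sf1 was lowest (-0.24, adjusted p = 0.0824).

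Of 17 other pericyte and smooth muscle genes 0 rose and 2 fell, with a median of -0.07. Anpep, the aminopeptidase CD13 of pericytes and meningeal cells, fell from 275 and 268 in WT to 182 and 211 in RKO (-0.47, adjusted p = 0.00697). Myl9, the regulatory light chain of smooth muscle myosin, fell from 450.2 and 455 to 361 and 325 (-0.40, adjusted p = 0.00903). Sncg was highest (0.24, adjusted p = 0.116), and which cells of the tissue its signal came from was not tested. On the RKO arrays, where Slc22a8, Foxc1, Anpep and Myl9 were lower, so were 12 of the 14 leptomeningeal markers given above, all but Col1a1 and Col1a2, and their part was not tested here either.

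**Figure D5:**
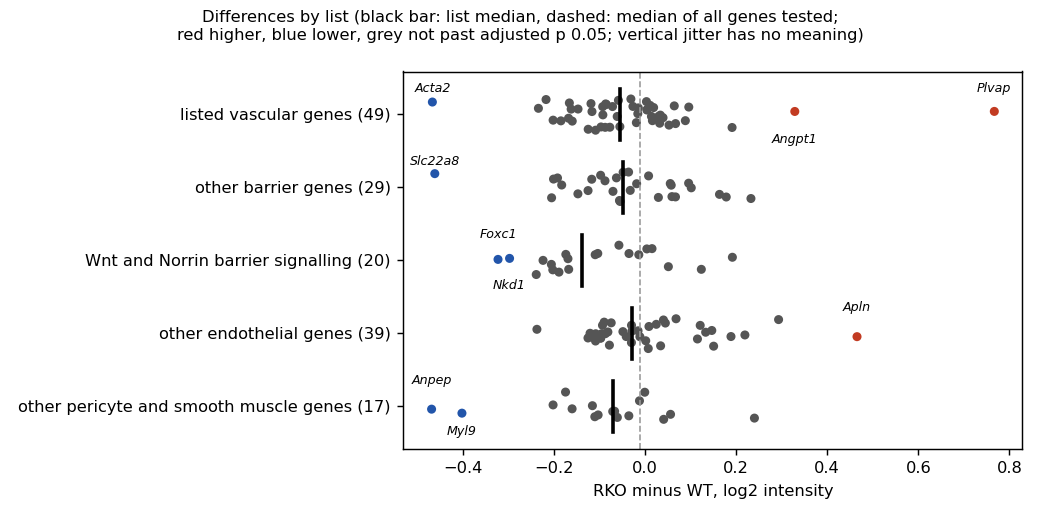
Differences, RKO minus WT in log2 intensity (horizontal axis), of the 49 listed vascular genes and of 105 further vascular genes by list (rows, number tested in brackets). Black bars are list medians, from -0.14 (Wnt and Norrin signalling) to -0.03 (other endothelial genes), and the dashed line is the median of all tested genes, -0.01.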

How the data were processed

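The deposited table gave the intensities of 35556 probe sets on the 4 arrays. Their values show a linear scale. Per the submitters' processing notes GCOS and RMA were used, with versions and settings not given in the sources used here. RMA as usually run makes array distributions alike, which removes shifts common to most genes. The deposited distributions were not identical, however. Their highest values ran from 19488.2 (WT replicate 2) to 21034.5 (WT replicate 1), and RKO replicate 1 had the lower median over tested genes given above. Per the labels' protocols biotinylated cRNA was made from 1 µg of total RNA.

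Here log2 of the deposited intensities was taken with no pseudocount. Platform annotation gave 21789 probe sets 1 symbol, 1621 several and 12146 none, and only the first kind was used. The Entrez identifiers of 21698 probe sets matched RefSeq's GRCm38.p6 gene table. For each gene the probe set with the highest mean was kept, and genes whose mean fell short of the 40th percentile over the whole array (log2 7.38, intensity 167) were left out. The groups were compared with limma 3.58.1 under R 4.3.3 (lmFit, then eBayes, 2 arrays per group, no covariate, 2 residual and 8.73 prior degrees of freedom), two-sided, with Benjamini-Hochberg adjustment over 13587 genes. The script was tested on simulated data. The number of arrays limits precision. The p-values do not rest on the spread between these samples alone. With 8.73 prior against 2 residual degrees of freedom, most of each gene's variance estimate came from the other tested genes. At most 5 probe sets had the same value on any 2 arrays.

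The members and all lists were chosen with earlier results of these data known, so the Plvap difference is no independent evidence. Every member was accounted for. Values per array were given for Plvap, for junction and transport genes, for called members and for the 3 highest and 3 lowest differences of each role group, and from related lists the called genes and the extremes were named. Slco1c1, Tfrc, Aplnr, Gata2 and the further Wnt and marker genes were added after their values were seen. Alternatives were the normalization, filter, pseudocount, variance trend, probe set rule, replicate block and each array left out.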

Additional observations from a re-analysis of the deposited data

How the results depend on the processing

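Plvap kept its direction under every alternative run, with log2 differences of 0.66 to 0.87, and kept its call under each but the one with no filter on dim probe sets (0.77, adjusted p = 0.0580). Plvap minus the junction and transport genes stayed between 0.68 and 0.89. The counts moved more. Against 3 vascular, 218 total and 6 related genes called, the eBayes intensity trend gave 6, 499 and 16, centring each array over the tested genes gave 1, 106 and 2, no filter gave 0, 31 and 0 (limma, where 12 vascular, 1956 total and 30 related genes had an unadjusted p under 0.05), and the 60th percentile filter gave 10 related genes. Centring over all probe sets, chosen after seeing the data, gave 455 in all and 11 related. The 2 centrings shift the arrays in opposite ways. Leaving out 1 array, where the lone array is assumed to vary like the other group, gave 1 to 3 vascular genes, 73 to 293 in all and 2 to 5 related genes, with the lowest counts without RKO replicate 1, where Plvap was the 1 vascular gene left. Vtn was called with the 60th percentile filter, the trend and the centring over all probe sets, and Cldn5 and Emcn with the trend. The replicate numbers gave no sign of pairing: deviations of same-numbered arrays correlated at -0.11, and with the replicate block 3 vascular, 259 total and 7 related genes were called. The crossed pairing, added for this reason, gave 6, 696 and 18, with Vtn, Emcn and Vcam1 added to the 3 vascular genes. Among the uncalled members tested, 16 changed sign under some alternative, each with a main difference of at most 0.07 in size. For these only the values, and no direction, can be read. The other uncalled members tested kept their sign but did not pass in the main fit either. The causes were not tested.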
